A study of Gallus gallus with 6 samples.

Results

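The immediate-early genes FOS, FOSL2, JUN, ATF3, EGR1, NR4A3, MYC, IER2, IER5 and DUSP1 were examined in chicken cloacal skin. They were taken by NCBI chicken gene symbol. Of these 10 genes, 9 were found among the 18315 genes of the deposited tables, and no gene ID was matched to IER2. Each of the 9 had a mean above the minimum of 0.1 FPKM (fragment number corrected for exon length and library size) and was among the 15900 genes tested.

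The study sequenced RNA from a piece of cloacal skin, 8 mm across, from each of 6 Ma-Huang chickens of 1 line. The fat under the skin was scraped off before freezing. The s_light group held the low-yellowness birds s_light6575, s_light6971 and s_light8275, and the s_deep group held the high-yellowness birds s_deep6402, s_deep6403 and s_deep7858, each named by its wing number. The comparison asks how the skin transcriptome differs with the depth of yellow colour. No bird received an experimental treatment, the birds shared age and feed, and the labels give neither sex nor the time between slaughter and freezing. According to the paper, the slaughtered birds were bled, scalded in hot water and plucked by machine. Whether the skin pieces were cut before or after these steps is not stated, and their part in the levels was not tested. Each library is a separate bird, so p-values measure the spread between birds.

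Immediate-early genes are transcribed within minutes of a stimulus such as a growth factor, wounding, stretch, heat or handling of the tissue, from transcription factors that are already present in the cell. Many of their products are themselves transcription factors that switch on a later wave of genes, and others, such as DUSP1, shut down the kinases that started the response. In skin they are known for their induction by injury and by irritation of keratinocytes and dermal cells.

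The summed FPKM lay between 471488 and 487585 in s_light libraries and between 472540 and 488777 in s_deep libraries, and the number of reads behind a gene is not known from FPKM. The mean log2(FPKM + 0.1) of 34 genes on the W chromosome, which hens alone carry, was between 2.70 and 3.02 in the s_light libraries. It was 3.00 in s_deep7858 but -1.32 in s_deep6402 and -1.60 in s_deep6403, so for these 2 birds sex and group cannot be told apart. The bird of s_deep6403 is also listed under nearly white skin in a supplementary table of the study. The paper graded that class by overall skin colour in photographs, whereas the group label rests on cloacal skin yellowness, which is another measure. The range of each member's log2 fold change over the alternative analyses, among them each library left out in turn and the W-linked libraries alone, is given with its result.

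ATF3 was the member that followed the groups, with levels in s_light skin about an order of magnitude above those in s_deep skin. FOS was also higher in every s_light library than in every s_deep library, but by a small margin. For the other 7 members the groups overlapped. The threshold was a log2 fold change of 1 or more in size together with an adjusted p no higher than 0.05 (limma on log2(FPKM + 0.1), Benjamini-Hochberg over all tested genes), and 0 of the 9 members passed it. Across all tested genes 7 passed, which is 0.044%. At an unadjusted p under 0.05 the limma test had 2 members, ATF3 and EGR1, both higher in s_light, against 6.45% of all tested genes, 3.49% higher and 2.96% lower. Groups without overlap were seen for 2 of 9 members (22.2%), both higher in s_light, against 10.8% of all tested genes, 5.36% higher and 5.48% lower. The log2 fold change, s_light minus s_deep, was above 0 for 8 of the 9 members with a median of 0.75, against 46.2% and a median of -0.02 over all tested genes. The members and the gene lists below were chosen with earlier results of these data known, so such shares describe and do not test.

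**Figure D1:**
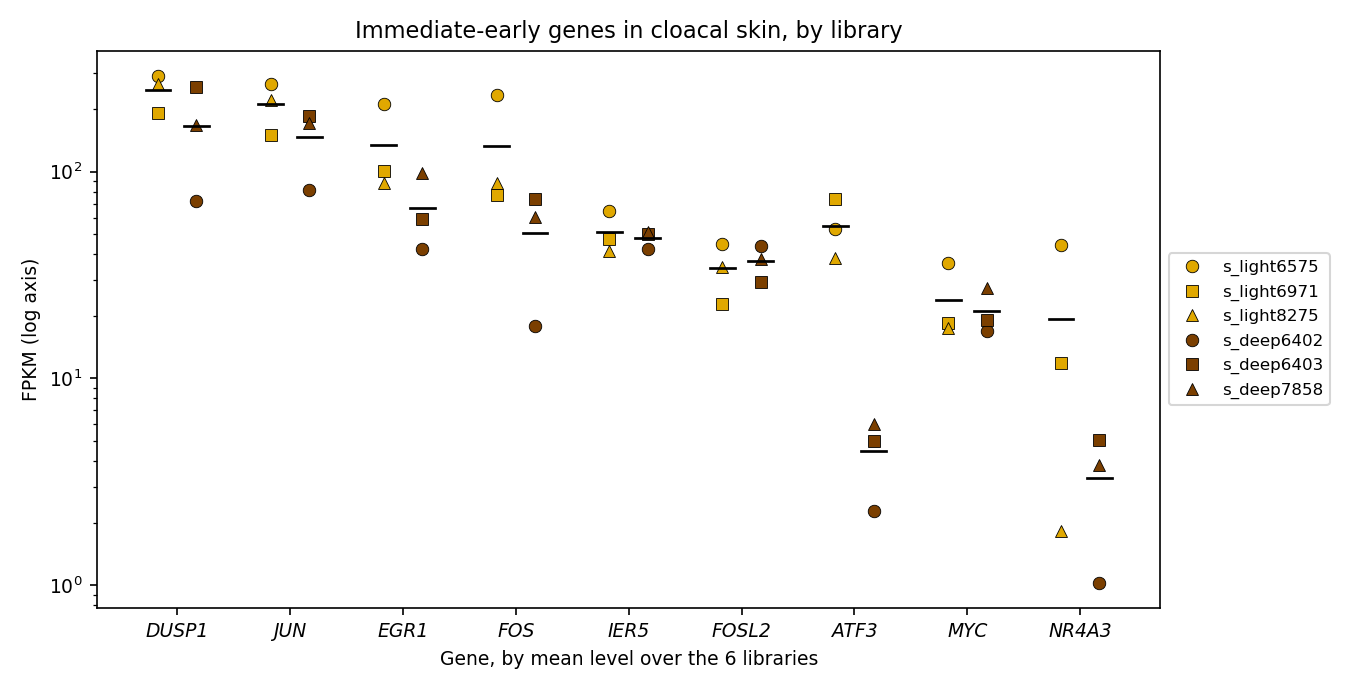
FPKM of each immediate-early gene (log axis) in the 3 s_light libraries (left of each pair) and the 3 s_deep libraries (right of each pair); a point is a library and a bar is the mean of a group. The ATF3 points of s_light, between 38.4 and 73.4 FPKM, all lie above those of s_deep, between 2.28 and 6.05 FPKM, and s_light6575 is the highest point for 8 of the 9 genes.

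FOS and JUN encode the founding subunits of AP-1, a dimeric transcription factor that binds DNA through leucine zipper proteins of the Fos, Jun and ATF families. FOS (gene ID 396512) measured 236, 77.0 and 87.8 FPKM in s_light6575, s_light6971 and s_light8275, against 18.0, 73.5 and 60.45 FPKM in s_deep6402, s_deep6403 and s_deep7858. A single s_light library was far above the rest, a single s_deep library was far below, and the other 4 were close to each other, with s_light6971 just above s_deep6403. The means were 133.5 ± 88.7 FPKM in s_light and 50.65 ± 29.0 FPKM in s_deep (SD, n = 3 each). On the log2 scale the fold change was 1.44, with a standard error of 0.62, and the adjusted p by limma was 0.779. The exact two-sided permutation test of the 6 values gave p = 0.1, the smallest that 3 birds against 3 allow. The log2 fold change of FOS lay between 0.81, without s_deep6402, and 1.82, without s_deep6403, in the alternatives. It was 0.93 without s_light6575 and 0.95 in the W-linked libraries alone.

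JUN (gene ID 424673) read 266, 150.5 and 223 FPKM in s_light6575, s_light6971 and s_light8275, against 81.9, 185 and 173 FPKM in s_deep6402, s_deep6403 and s_deep7858. The groups overlapped, since s_light6971 lay below both s_deep6403 and s_deep7858. JUN averaged 213 ± 58.3 FPKM in s_light and 147 ± 56.3 FPKM in s_deep (SD, n = 3 each). Its difference of 0.59 on the log2 scale had a standard error of 0.35 and a limma adjusted p of 0.894. It lay between 0.21, without s_deep6402, and 0.82, without s_light6971, and was 0.26 in the W-linked libraries alone. Per unit of JUN, the FOS level was 0.887, 0.512 and 0.394 in the s_light libraries and 0.220, 0.397 and 0.350 in the s_deep libraries, so the AP-1 pair did not keep a fixed ratio between skin pieces.

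FOSL2 encodes FRA2, a Fos family protein that lacks the strong activation domain of FOS and is known for slower and more lasting induction. FOSL2 (gene ID 421416) had 44.7, 22.9 and 34.75 FPKM in s_light6575, s_light6971 and s_light8275, against 43.5, 29.4 and 37.9 FPKM in s_deep6402, s_deep6403 and s_deep7858. The s_deep values lay inside the span of s_light, and s_deep6402, where FOS was lowest, held the highest FOSL2 level of its group. Between groups the log2 fold change was -0.15 with a standard error of 0.26 and a limma adjusted p of 0.997, and in the alternatives it lay between -0.37 and 0.11, the 0.11 without s_light6971. The ratio of FOS to FOSL2 was between 2.53 and 5.27 in s_light and between 0.414 and 2.503 in s_deep, with s_light8275 and s_deep6403 nearly equal.

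ATF3 encodes a stress-induced leucine zipper factor of the ATF and CREB family, which represses many promoters as a homodimer and can pair with JUN. ATF3 (gene ID 421369) reached 52.5, 73.4 and 38.4 FPKM in s_light6575, s_light6971 and s_light8275, against 2.28, 4.97 and 6.05 FPKM in s_deep6402, s_deep6403 and s_deep7858. The lowest s_light library was several times above the highest s_deep library, and the order within s_light, with s_light6971 on top, was unlike that of any other member. The means were 54.8 ± 17.6 FPKM in s_light and 4.43 ± 1.94 FPKM in s_deep (SD, n = 3 each), a ratio of 12.4. This gave a log2 fold change of 3.66 with a standard error of 0.39, and the adjusted p by limma was 0.0529, the 9th smallest p of all tested genes and just short of the threshold. An exact two-sided permutation test gave 0.1, the smallest p possible here.

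The direction of ATF3 held in all 15 alternative analyses, with a log2 fold change between 3.11 and 3.93. As the groups did not overlap, leaving out libraries or changing the pseudocount or filter could not have reversed it. Apart from the 4 libraries with W-linked expression, the adjusted p of ATF3 by limma lay between 0.021 and 0.354. Without s_deep7858 the adjusted p was 0.021. Without any 1 of the other 5 libraries it was between 0.118 and 0.354. In the 4 libraries with W-linked expression the log2 fold change was 3.11 with an adjusted p of 0.501, with s_deep7858 as the only s_deep library, so that its spread was taken to be that of the others.

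Ratios of ATF3 to JUN and to FOS mainly carry the ATF3 difference, since JUN and FOS differed less between the groups. The ratio of ATF3 to JUN was 0.198, 0.488 and 0.172 in s_light6575, s_light6971 and s_light8275, against 0.0278, 0.0269 and 0.0350 in s_deep6402, s_deep6403 and s_deep7858. Within s_deep this ratio was nearly constant although JUN itself was far lower in s_deep6402 than in the other s_deep libraries, and in s_light it was several times higher in every library. The ratio of ATF3 to FOS likewise did not overlap, at 0.223 to 0.954 in s_light and 0.0676 to 0.127 in s_deep. Of the variance of log2(FPKM + 0.1) over the 6 libraries, 93.1% lay between the groups for ATF3, against 43.9% for FOS, 30.2% for JUN and a median of 12.3% over all tested genes.

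**Figure D2:**
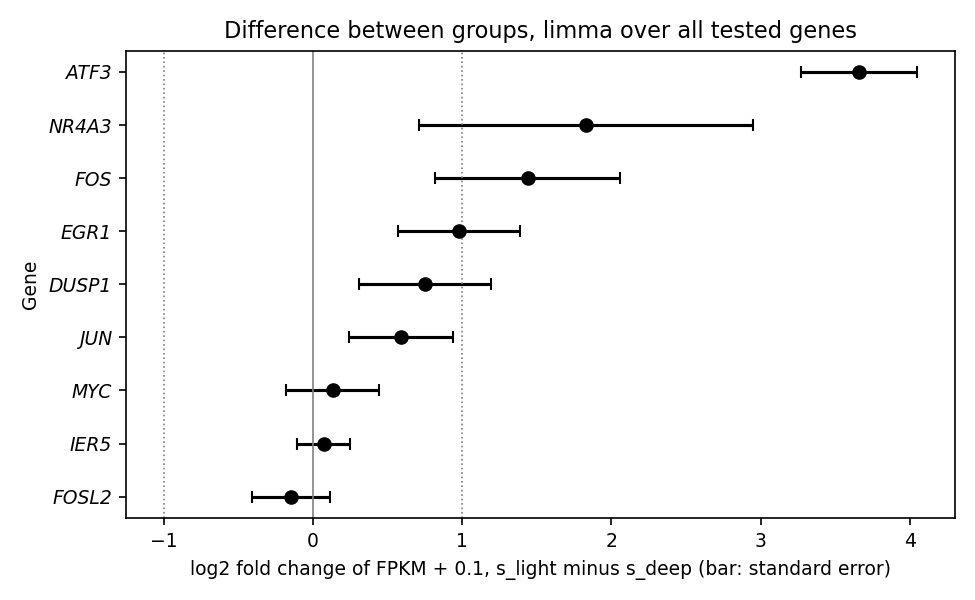
Log2 fold change of FPKM + 0.1, s_light minus s_deep, for each of the 9 genes from limma over all tested genes, with bars of 1 standard error and dotted lines at the fold threshold of 1 in each direction. ATF3 lies at 3.66, apart from NR4A3 at 1.83 with its wide bar, while MYC, IER5 and FOSL2 lie between -0.15 and 0.13.

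EGR1, NR4A3 and MYC encode factors outside AP-1. EGR1 is a zinc finger protein that binds GC-rich sites and is induced through serum response factor. EGR1 (gene ID 373931) measured 214, 100.4 and 88.3 FPKM in s_light6575, s_light6971 and s_light8275, against 42.0, 58.8 and 98.9 FPKM in s_deep6402, s_deep6403 and s_deep7858. The overlap came from s_deep7858, which lay between s_light8275 and s_light6971. EGR1 averaged 134 ± 69.1 FPKM in s_light and 66.6 ± 29.2 FPKM in s_deep (SD, n = 3 each). On the log2 scale the fold change was 0.98 with a standard error of 0.41 and a limma adjusted p of 0.769. In the alternatives it lay between 0.32, in the 4 libraries with W-linked expression, and 1.31, without s_deep7858, and it was 0.59 without s_light6575.

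NR4A3 encodes an orphan nuclear receptor of the NUR77 family, which acts without a known ligand and is controlled mainly by how much of it is made. NR4A3 (gene ID 420996) read 44.2, 11.9 and 1.83 FPKM in s_light6575, s_light6971 and s_light8275, against 1.03, 5.04 and 3.80 FPKM in s_deep6402, s_deep6403 and s_deep7858. It had the widest span of the 9 members, with a highest value 42.9 times its lowest, and most of that span lay inside s_light, whose lowest library was below 2 of the s_deep libraries. The log2 fold change of 1.83 had a standard error of 1.12 and a limma adjusted p of 0.902. It moved between 0.76, without s_light6575, and 3.02, without s_light8275.

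The 2 other receptors of that family, given after their values were seen, had the same order in s_light and the same lowest library. NR4A1 measured 27.9, 8.73 and 2.55 FPKM in s_light6575, s_light6971 and s_light8275, against 1.56, 5.33 and 4.79 FPKM in s_deep6402, s_deep6403 and s_deep7858. NR4A2 had 26.8, 6.97 and 3.68 FPKM in the s_light libraries, against 2.56, 5.71 and 4.40 FPKM in the s_deep libraries. All 3 receptors were thus highest in s_light6575, next in s_light6971 and lowest in s_deep6402.

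MYC encodes a helix-loop-helix leucine zipper factor that drives growth and ribosome genes as a dimer with MAX. MYC (gene ID 420332) measured 36.1, 18.6 and 17.5 FPKM in s_light6575, s_light6971 and s_light8275, against 16.9, 19.3 and 27.5 FPKM in s_deep6402, s_deep6403 and s_deep7858. Apart from s_light6575 and s_deep7858 the libraries were alike, and the groups overlapped. Its log2 fold change was 0.13 (standard error 0.31, limma adjusted p = 0.999), and it lay between -0.28 and 0.33 in the alternatives, with -0.20 without s_light6575.

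DUSP1 and IER5 are early response genes that do not encode DNA-binding factors of these families. DUSP1 is a nuclear phosphatase that removes phosphate from p38, JNK and ERK kinases and so ends the signal. DUSP1 (gene ID 374192) reached 290.1, 193 and 264 FPKM in s_light6575, s_light6971 and s_light8275, against 71.8, 257 and 168 FPKM in s_deep6402, s_deep6403 and s_deep7858. Only s_deep6402 stood clearly apart, and s_deep6403 was within the span of s_light. DUSP1 averaged 249 ± 50.4 FPKM in s_light and 166 ± 92.8 FPKM in s_deep (SD, n = 3 each). Between groups the log2 fold change was 0.75 (standard error 0.44, limma adjusted p = 0.891). It lay between 0.24, without s_deep6402, and 1.16, without s_deep6403, in the alternatives, and was 0.55 in the W-linked libraries alone.

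IER5 encodes a nuclear protein known, in human cells, to act with heat shock factor HSF1. IER5 (gene ID 101750986) had 64.4, 47.4 and 41.4 FPKM in s_light6575, s_light6971 and s_light8275, against 42.2, 50.1 and 51.1 FPKM in s_deep6402, s_deep6403 and s_deep7858. It was the steadiest member, with the s_deep values inside the span of s_light. Its log2 fold change was 0.07 (standard error 0.18, limma adjusted p = 0.999), and it lay between -0.11, without s_light6575, and 0.21 in the alternatives.

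By mean FPKM over the 6 libraries, a scale that is per length, the order was DUSP1 at 207, JUN at 179.8, EGR1 at 100.3, FOS at 92.1, IER5 at 49.4, FOSL2 at 35.5, ATF3 at 29.6, MYC at 22.65 and NR4A3 at 11.3. Of the neighbours in this order, JUN was above EGR1 in 6 of 6 libraries. DUSP1 was above JUN in 4 of 6, EGR1 above FOS in 4 of 6, and ATF3 above MYC in 3 of 6, so these neighbours did not keep their order between birds. The place of ATF3 depends on the group, since it was above FOSL2 in every s_light library and below it in every s_deep library.

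Most members varied more between birds than the typical gene. The difference between the highest and the lowest log2(FPKM + 0.1) had a median of 2.01 over the 9 members, against 0.73 over all tested genes. For NR4A3 it was wider than for 99.0% of tested genes, for ATF3 98.8% and for FOS 97.5%. MYC with 68.8%, FOSL2 with 63.1% and IER5 with 43.1% were nearer the middle.

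The same 2 libraries held most of the extremes. The highest value was in s_light6575 for 8 of 9 members (88.9%), all but ATF3, against 16.6% of all tested genes. The lowest was in s_deep6402 for 7 of 9 (77.8%), all but FOSL2 and IER5, against 14.8% of all tested genes. In units of each gene's own SD over the 6 libraries, the mean over the 9 members was 1.32 in s_light6575, -0.06 in s_light6971 and -0.03 in s_light8275, against -1.11 in s_deep6402, -0.17 in s_deep6403 and 0.04 in s_deep7858. These means hide members that went opposite ways, from -1.62 to 1.11 in s_light6971 and from -1.04 to 0.68 in s_light8275. In s_deep6402 they ran from -1.87 to 0.90, with FOSL2 at 0.90. They ran from -0.75 to 0.59 in s_deep6403 and from -0.62 to 0.77 in s_deep7858. The 2 libraries with most of the extremes lie in opposite groups. Without s_deep6402 the log2 fold change was 0.70 for EGR1, 1.17 for NR4A3, 3.25 for ATF3, -0.02 for MYC and FOSL2 and -0.01 for IER5. Without s_light6575 it was 0.41 for JUN, 0.63 for DUSP1, -0.37 for FOSL2 and 3.66 for ATF3. For the other members the values without each library are given above.

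**Figure D3:**
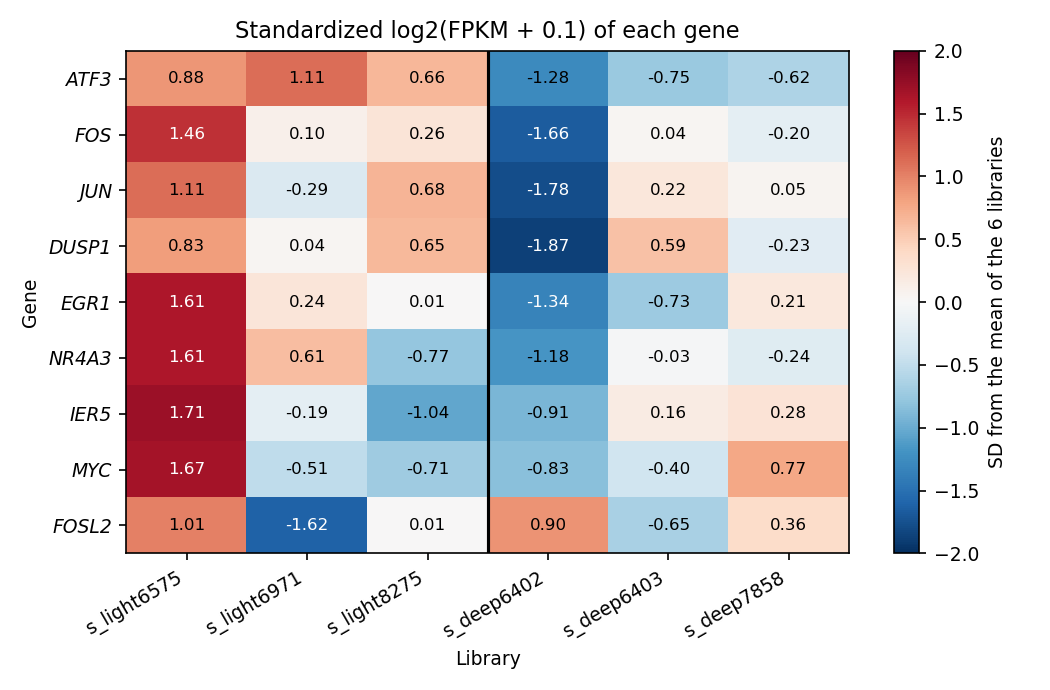
Log2(FPKM + 0.1) of each gene as SD from its mean over the 6 libraries, with s_light libraries left of the line and s_deep libraries right of it. ATF3 is above its mean in every s_light library and below it in every s_deep library. Over all 9 genes s_light6575 is at 0.83 to 1.71, and s_deep6402 is the lowest library for 7 of them.

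Which members vary together was examined over the 28 pairs of the 8 members other than ATF3, since the ATF3 values form a separate cluster in each group and no correlation with it was computed. Pearson's r of log2(FPKM + 0.1) was above 0 for 24 pairs and above 0.8 for 9, with a median of 0.68. With exact permutation of the pairings, 8 pairs had an unadjusted p under 0.05. After Benjamini-Hochberg adjustment over the 28 pairs 0 had an adjusted p of at most 0.05, and the smallest was 0.0519 by the exact permutation test.

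By Pearson's r over the 6 libraries, the closest set was FOS, JUN and DUSP1. JUN and DUSP1 had r = 0.96 (exact permutation p = 0.00556, adjusted 0.0519) and Spearman's rho = 0.94 (exact permutation p = 0.0167, adjusted 0.156). Without s_light6575 and s_deep6402, the libraries farthest from the JUN median, r was 0.72, and for deviations from the group means it was 0.94. The ratio of JUN to DUSP1 moved by a factor of 1.59 over the 6 libraries, the least of the ratios computed. It was 0.781 to 0.916 in s_light and 0.719 to 1.14 in s_deep.

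FOS followed both of them. FOS and DUSP1 had r = 0.91 (exact permutation p = 0.00417, adjusted 0.0519) and rho = 0.94 (exact permutation p = 0.0167), with r = 0.78 without the 2 libraries farthest from the FOS median. FOS and JUN had r = 0.94 (exact permutation p = 0.00972, adjusted 0.0681) and rho = 0.83 (exact permutation p = 0.0583), with r = 0.49 without those 2 libraries. For deviations from the group means, which keep both of those libraries, r was 0.87 for FOS with DUSP1 and 0.93 for FOS with JUN. With both libraries left out, the r of FOS with JUN thus fell further than that of FOS with DUSP1. Without s_deep6402 alone it fell less, to 0.83 against 0.70 for FOS with DUSP1. Without s_light6575 alone r was 0.95 for FOS with JUN and 0.97 for FOS with DUSP1.

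MYC and IER5 were also close over the 6 libraries. Their r was 0.92 (exact permutation p = 0.00278, adjusted 0.0519) and their rho 0.94 (exact permutation p = 0.0167, adjusted 0.156). Without s_light6575 and s_deep7858, the libraries farthest from the MYC median, r was 0.94, and without s_light6575 alone it was 0.76. For deviations from the group means r was 0.92. On that measure the pair was not set apart, since r was 0.98 for EGR1 with MYC, 0.95 for NR4A3 with IER5 and 0.90 for EGR1 with IER5. Neither gene differed between the groups beyond its spread.

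Other high correlations fell further when the extreme libraries were left out, or about as far as that of FOS with JUN. FOS and EGR1 had r = 0.90 (exact permutation p = 0.0431, adjusted 0.151) and rho = 0.71 (exact permutation p = 0.136), but r was -0.13 without s_light6575 and s_deep6402. EGR1 and NR4A3 had r = 0.85 (exact permutation p = 0.0319, adjusted 0.144) and rho = 0.83 (exact permutation p = 0.0583), with r = 0.11 without the 2 farthest libraries. NR4A3 and IER5 had r = 0.89 (exact permutation p = 0.0194, adjusted 0.109) and rho = 0.71 (exact permutation p = 0.136), with r = 0.52 without them. For deviations from the group means r was 0.82 for FOS with EGR1, 0.79 for EGR1 with NR4A3 and 0.95 for NR4A3 with IER5. EGR1 and MYC had r = 0.82 (exact permutation p = 0.0361, adjusted 0.144), and 0.30 without s_light6575 and s_deep6402. For deviations from the group means their r was 0.98, the highest of all pairs. FOS and NR4A3 had r = 0.84 (exact permutation p = 0.0514, adjusted 0.16), and -0.22 without s_light6575 and s_deep6402. Over the 6 libraries the r of FOSL2 with the others lay between -0.27 with DUSP1 and 0.46 with MYC, but single libraries moved it widely. Without s_deep6402 r was 0.81 with JUN and 0.77 with MYC, and without s_light6575 it was -0.91 with NR4A3.

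**Figure D4:**
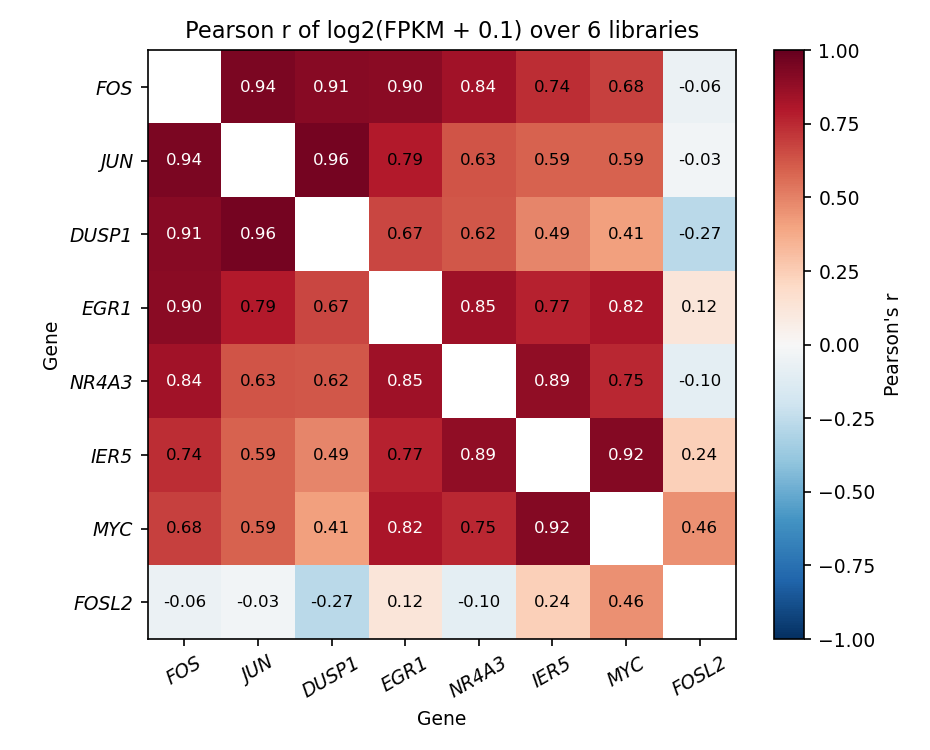
Pearson's r of log2(FPKM + 0.1) over the 6 libraries for each pair of 8 immediate-early genes, with blank squares on the diagonal. The block of FOS, JUN and DUSP1 has r of 0.91 to 0.96, MYC and IER5 have 0.92, and the row of FOSL2 stays between -0.27 and 0.46.

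The genes whose pattern was most like the mean standardized level of the 9 members, among 11160 other genes with a symbol and a mean of at least 1 FPKM, were ZYX, HNRNPH1, CYR61, SAPCD2 and DYL1, with r between 0.981 and 0.9996 over the 6 libraries. These are the extremes of many genes, and the 6 points share the libraries with the members. ZYX, a focal adhesion protein, measured 131, 102 and 102 FPKM in s_light6575, s_light6971 and s_light8275, against 84.7, 99.35 and 104 FPKM in s_deep6402, s_deep6403 and s_deep7858. CYR61, a secreted matrix protein and itself an early response gene, had 133, 41.8 and 41.5 FPKM in the s_light libraries, against 12.4, 41.5 and 50.25 FPKM in the s_deep libraries. Both show 1 high s_light library, 1 low s_deep library and 4 libraries close together.

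A list of other immediate-early and early response genes held 42 tested genes. None passed the threshold, and the median log2 fold change was 0.16. At an unadjusted p under 0.05 the limma test had 1 higher in s_light and 0 lower, against 3.49% and 2.96% of all tested genes. That gene was MAFF, a small leucine zipper factor, which measured 31.2, 32.5 and 24.8 FPKM in s_light6575, s_light6971 and s_light8275, against 15.9, 17.6 and 23.1 FPKM in s_deep6402, s_deep6403 and s_deep7858. Its log2 fold change was 0.65 (standard error 0.18, limma adjusted p = 0.5). As for ATF3, the groups of MAFF did not overlap and s_light6971 was highest. Such groups, higher in s_light, were seen for 2 of the 42 genes (4.76%), near the 5.36% of all tested genes. The other was KLF10, with s_light8275 highest. Of the 42 genes, 25 (59.5%) were highest in s_light6575 and 19 (45.2%) lowest in s_deep6402. BTG2, a repressor of proliferation, was such a gene, with 296, 116 and 155.5 FPKM in the s_light libraries against 85.3, 129 and 103 FPKM in the s_deep libraries (log2 fold change 0.74, standard error 0.34, limma adjusted p = 0.792).

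Among 13 tested dimerization partners of AP-1 none passed the threshold, and the median log2 fold change was 0.04. At an unadjusted p under 0.05 by limma 1 was higher and 1 lower in s_light, against 3.49% and 2.96% of all tested genes. They were MAFF and NFE2L2, the antioxidant response factor NRF2, whose log2 fold change was -0.32 (standard error 0.13, limma adjusted p = 0.748). JUND, the Jun protein most present in resting cells, had 202, 89.98 and 57.3 FPKM in s_light6575, s_light6971 and s_light8275, against 38.4, 98.85 and 83.6 FPKM in s_deep6402, s_deep6403 and s_deep7858, again with the extremes in s_light6575 and s_deep6402. Of 11 tested genes of the MYC network, 0 passed the threshold and 0 had an unadjusted p under 0.05 by limma, and their median log2 fold change was -0.12.

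Other phosphatases and feedback inhibitors of MAP kinases numbered 14 tested genes, with none past the threshold and a median log2 fold change of 0.05. At an unadjusted p under 0.05 by limma 2 were higher and 0 lower in s_light, against 3.49% and 2.96% of all tested genes. DUSP3, a small phosphatase acting on ERK and JNK, had 42.2, 39.95 and 41.1 FPKM in s_light6575, s_light6971 and s_light8275, against 25.05, 20.1 and 22.95 FPKM in s_deep6402, s_deep6403 and s_deep7858. The birds of each group were close to each other, unlike for DUSP1, and the groups were well apart. The log2 fold change of DUSP3 was 0.86 (standard error 0.11, limma adjusted p = 0.0841). DUSP10, which acts on p38 and JNK, was higher by 0.75 on the log2 scale with a standard error of 0.21 (limma adjusted p = 0.54).

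The upstream regulators of immediate-early transcription tested were serum response factor and its partners, CREB family factors and MAP kinases. Of 25 tested, 0 passed the threshold, and the median log2 fold change was -0.02. Only 1 had an unadjusted p under 0.05 by limma, against 6.45% of all tested genes. It was MAP2K3, the kinase that activates p38, with a log2 fold change of -0.40 (adjusted p = 0.742 by limma). The highest value was in s_light6575 for 4 of the 25 genes and the lowest was in s_deep6402 for 4, which is 16.0% each and near the shares of all tested genes. Their extremes lay more often elsewhere. Of the 25 genes 11 were highest in s_deep7858, against 17.5% of all tested genes. In s_light6971 9 were lowest, against 15.5%. Serum response factor itself (SRF), named after its values were seen, had the extremes of most members. It measured 52.5, 25.9 and 34.1 FPKM in s_light6575, s_light6971 and s_light8275, against 21.8, 29.3 and 31.8 FPKM in s_deep6402, s_deep6403 and s_deep7858. Its log2 fold change was 0.40 (standard error 0.27, limma adjusted p = 0.937).

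Heat shock genes, another group that responds quickly to stress, had the same extreme libraries as the members. Of 20 tested, 15 (75.0%) were highest in s_light6575 and 15 lowest in s_deep6402. In the limma test 1 passed the threshold and 7 were higher and 0 lower in s_light at an unadjusted p under 0.05. Of all tested genes 0.044% passed the threshold, and 3.49% were higher and 2.96% lower at that p. The median log2 fold change of the heat shock genes was 0.74. The gene past the threshold was HSPB1, a small chaperone, which measured 392, 402 and 424 FPKM in s_light6575, s_light6971 and s_light8275, against 166, 194 and 156 FPKM in s_deep6402, s_deep6403 and s_deep7858. Its log2 fold change was 1.24 (standard error 0.13, limma adjusted p = 0.0476), and 0 genes, HSPB1 included, passed when s_light6971, s_light8275, s_deep6402 or s_deep6403 was left out. HSPH1, a nucleotide exchange factor for HSP70, had 98.99, 94.0 and 53.0 FPKM in the s_light libraries against 15.6, 31.2 and 43.0 FPKM in the s_deep libraries (log2 fold change 1.52, standard error 0.40, limma adjusted p = 0.487). The groups of both genes did not overlap, with little spread within them for HSPB1 and more for HSPH1. HSPB7 and DNAJB5, highest in s_light8275, did not overlap either. Their log2 fold changes were 4.79 and 1.95 (limma adjusted p = 0.129 and 0.201), with HSPB7 at 0.17 to 2.31 FPKM in s_deep. Groups without overlap were seen for 7 of the 20 genes (35.0%), all higher in s_light, against 5.36% of all tested genes higher and 5.48% lower.

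**Figure D5:**
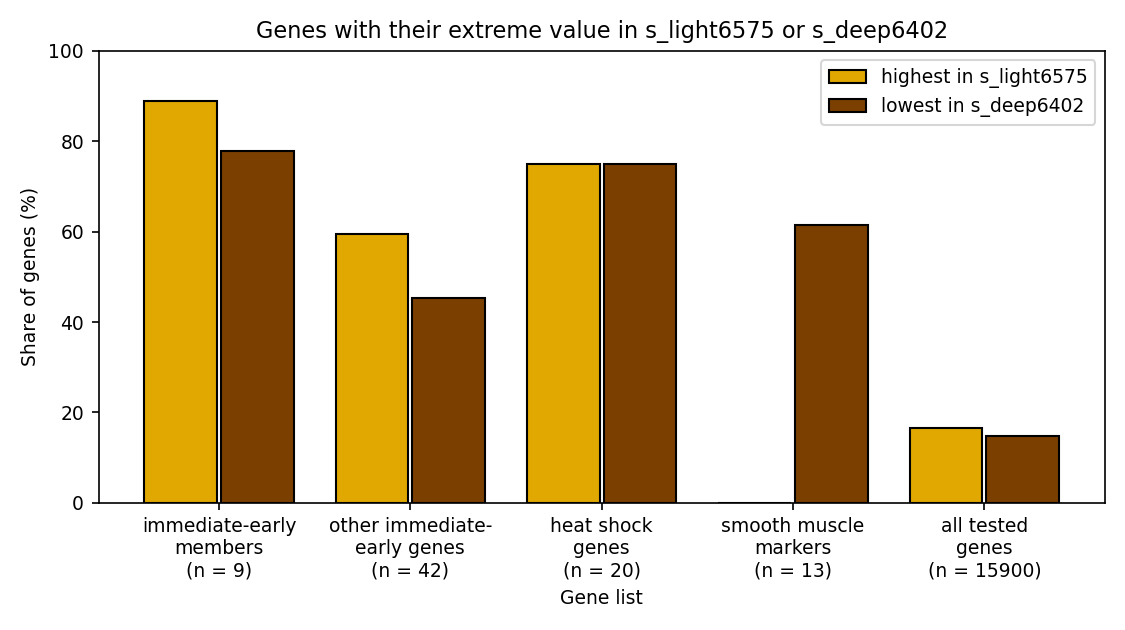
Share of genes, in percent, whose highest value over the 6 libraries was in s_light6575 (left bar) and whose lowest was in s_deep6402 (right bar), for the 9 immediate-early genes, other immediate-early genes, heat shock genes, smooth muscle markers and all tested genes. The 9 genes have 88.9% and 77.8%, against 16.6% and 14.8% of all tested genes. No smooth muscle marker was highest in s_light6575, but 61.5% of them were lowest in s_deep6402.

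Marker genes of other cell types were read beside the members, and 0 of them passed the threshold by limma. The 13 tested smooth muscle markers summed to 6484, 5726 and 10630 FPKM in s_light6575, s_light6971 and s_light8275, against 3184, 5382 and 3749 FPKM in s_deep6402, s_deep6403 and s_deep7858. At an unadjusted p under 0.05 by limma, 9 of the 13 were higher in s_light and 0 lower, among them DES and TAGLN. Of all tested genes 3.49% were higher. The log2 fold changes were 3.65 for DES, 3.51 for ACTG2 and 2.45 for TAGLN, against 3.66 for ATF3. The limma adjusted p of these markers was 0.0841, 0.161 and 0.187. Groups without overlap, higher in s_light, were seen for 9 of the 13 (69.2%), against 5.36% of all tested genes. The log2 fold change was above 0 for 12 of the 13. Abundant ACTA2, named after its values were seen, ran the other way, with a mean of 767 FPKM in s_light and 989 FPKM in s_deep. Its log2 fold change was -0.32 (limma adjusted p = 0.957). The lowest value was in s_deep6402 for 8 of the 13 (61.5%), against 14.8% of all tested genes. The highest value was in s_light8275 for 12 of the 13. In that library ATF3 had its lowest s_light value and NR4A3 was below 2 of its s_deep values. FOS at 87.8, JUN at 223 and DUSP1 at 264 FPKM were there exceeded only by s_light6575. Of the 7 adipocyte markers, 3 were higher in s_light at an unadjusted p under 0.05 and without overlap, namely CIDEC, FABP4 and PLIN1. Their log2 fold changes were between 1.09 and 1.66. Of all tested genes 3.49% were higher at that p, and 5.36% were higher without overlap. Abundant ADIPOQ, named after its values were seen, ran the other way, with a mean of 797 FPKM in s_light, 1008 FPKM in s_deep and a log2 fold change of -0.35 (limma adjusted p = 0.934). Of the 6 tested macrophage markers, C1QA, C1QC and CD74 were lower in s_light without overlap, against 5.48% of all tested genes. C1QA alone was so at an unadjusted p under 0.05 by limma. The groups overlapped for C1QB and MPEG1. They also overlapped for MARCO, which ran the other way at low levels, with means of 0.773 FPKM in s_light and 0.477 FPKM in s_deep. MARCO had a log2 fold change of 0.68 (limma adjusted p = 0.902). The 11 keratinocyte markers, which define skin epithelium, were all detected and summed to between 1901 and 2882 FPKM in s_light and between 2398 and 2870 FPKM in s_deep. Their log2 fold change was below 0 for 9 and above 0 for 2. At an unadjusted p under 0.05 by limma, 1 was lower in s_light and 0 higher, against 2.96% of all tested genes lower. It was DSG2, with means of 33.8 FPKM in s_light and 51.2 FPKM in s_deep (log2 fold change -0.60, limma adjusted p = 0.36). The 9 endothelial markers had log2 fold changes between -0.48 and -0.14. At an unadjusted p under 0.05 by limma 3 were lower, against 2.96% of all tested genes. The part of these cell types in the levels of ATF3, FOS and the other members was not tested. In skin pieces that mix cell types, more cells of a type and more RNA per cell cannot be told apart.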

How the data were processed

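RNA from 6 skin pieces (3 s_light, 3 s_deep) was sequenced by the authors, who removed adaptors, ribosomal and low-quality reads and aligned the rest with TopHat. The submitters' processing notes also name HISAT2 2.0.4, Bowtie2 2.2.5 and RSEM 1.1.12, with no role given, and the labels and the paper name different sequencers. The deposited values are FPKM per NCBI Gene ID, rounded to 2 decimals, already scaled to gene length and library size. The program that computed them, and whether strand was used, are not given in the sources used here. The low values showed no steps from which reads could be recovered, so no counting intervals are given.

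Symbols were looked up in a RefSeq gene table (assembly GRCg7b), where 15296 of 18315 IDs (83.5%) had a match. The authors used another assembly, so no coordinates are printed. The members and gene lists were chosen with earlier results of these data known.

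The 15900 genes whose mean reached 0.1 FPKM were fitted with limma 3.58.1 (intensity trend) in R 4.3.3 on log2(FPKM + 0.1). Differences are s_light minus s_deep, and p-values were adjusted over all of these genes by Benjamini-Hochberg. This scale understates changes of low genes. The script was tested on simulated data. Pairs of members were compared by Pearson's r and Spearman's rho with all 720 pairings. Python 3.11.15 with numpy 2.4.6, pandas 2.3.3, scipy 1.17.1 and matplotlib 3.10.9 was used for the rest. The genes named were the members, the genes past the threshold or among the 4 with the lowest p of each list, and the 5 genes most like the members' mean. NR4A1, NR4A2, SRF, ADIPOQ, ACTA2 and MARCO were chosen after their values were seen. The alternatives were other pseudocounts, filters and scalings, no intensity trend, a covariate of W-linked expression, the W-linked libraries alone, and each library left out in turn.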

Additional observations from a re-analysis of the deposited data

How the results depend on the processing

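The number of all tested genes past the threshold was 7. It was 11 with a pseudocount of 1, 12 with median-of-ratios scaling, 0 with a covariate of W-linked expression, 0 in the 4 libraries with W-linked expression, and 0 to 69 when each library was left out in turn, with 69 without s_deep7858 and 1 without s_light6575. The number of members past it was 0, and 1 with a pseudocount of 1, with a minimum mean of 1 FPKM and with median-of-ratios scaling. It was 0 to 1 over the libraries left out, the 1 without s_deep7858, and the member was ATF3 each time. The number of members whose groups did not overlap was 2, and 2 to 4 over the libraries left out. It was 4 without s_light6971 (FOS, JUN, ATF3 and DUSP1) and 4 without s_light8275 (FOS, ATF3, EGR1 and NR4A3), where fewer libraries are compared and 22.6% and 19.4% of all tested genes did not overlap. Log2 fold changes near 0 changed sign. MYC was at -0.28 with the W-linked covariate, -0.27 in the W-linked libraries alone and -0.20 to 0.33 over the libraries left out. IER5 was at -0.03 in both W-linked analyses and -0.11 to 0.21 over the libraries left out, and FOSL2 at -0.37 to 0.11. ATF3, FOS, JUN, EGR1, NR4A3 and DUSP1 kept a positive log2 fold change in all 15 alternatives. For ATF3 and FOS, whose groups did not overlap, leaving out libraries or changing the pseudocount or filter could not reverse the sign. The causes were not tested. No paired analysis was possible because no wing number occurs in both groups. With 3 birds a group and no read counts, differences of the size seen for JUN, EGR1 or DUSP1 could not be told from the spread between birds.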
